A study of Mus musculus with 2 samples.

Results

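The Mir379 to Mir410 cluster is a run of microRNA (miRNA) hairpins on the plus strand of mouse chromosome 12, in the distal part of the imprinted Dlk1-Dio3 region. Its members were taken by position alone: every miRNA gene of the GENCODE M21 annotation on that strand lying fully between 109705000 and 109752000 of mouse genome build mm10. This rule found 39 of the 2202 miRNA genes in the deposited tables, from Mir379 to Mir410, with Mir3072 and the unnamed model Gm27379 included. Levels were measured by small RNA sequencing in adrenal glands of male B6CASTF1/J mice (F1 animals of C57BL/6J and CAST/EiJ parents) aged 4 days. There was 1 group of 2 libraries, biological replicates 1 and 2, made from the males numbered 3 and 4. No treatment, second genotype or second age was present, so the data describe levels and the difference between 2 libraries. Both libraries carry the same donor label, and nothing beyond the animals' numbers says that they are separate animals. Any p-value below therefore measures only counting error between these 2 libraries.

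In the Dlk1-Dio3 region the noncoding RNAs Meg3, Rian and Mirg, with the miRNAs between and within them, are made from the maternally inherited chromosome, while the protein-coding genes Dlk1, Rtl1 and Dio3 are made from the paternal one. The hairpins are cut out of long noncoding transcripts by Drosha and Dicer, and the mature strand then guides repression of mRNAs that match its seed (bases 2 to 8). The cluster is confined to placental mammals, is best known from neurons and placenta, and has been linked by deletion in mice to metabolic adaptation after birth. The deposited counts were not split by parental allele, so imprinting itself was not measured here. A count belongs to a hairpin gene, so its 5p and 3p arms were not told apart.

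The set of RefSeq sequences used here (build GRCm38.p6) listed mature sequences for 38 of the 39 members, 71 forms in all. It listed 1 form each for Mir376c, Mir487b, Mir539, Mir485 and Mir453 and both arms for the others. A missing arm was not analysed and may still exist, so counts of seeds below cover the listed forms only. The forms below are printed because they belong to the most abundant members or because they show how closely members resemble each other. They run 5′ to 3′, all on the plus strand of chromosome 12, with the seed in capitals. The first set holds the leading pair of hairpins, Mir379 and Mir411, and the one other member that shares a seed with Mir379 on the 5p arm:
miR-379-5p: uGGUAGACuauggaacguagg
miR-411-5p: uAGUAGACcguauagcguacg
miR-1193-5p: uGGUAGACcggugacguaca
miR-379-3p: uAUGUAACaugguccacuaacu
miR-411-3p: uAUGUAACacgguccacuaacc

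Counted from 1 at the 5′ end, the 5p seeds of miR-379 and miR-411 differ by G2A. Their 3p arms have the same seed and differ over the whole form by U10C and U22C. The miR-379-5p form lies at chr12:109709065-109709085 and the miR-411-5p form at chr12:109710190-109710210. The second set is the miR-376 group, whose primary transcripts are known targets of A-to-I editing:
miR-376a-3p: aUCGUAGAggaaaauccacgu
miR-376b-3p: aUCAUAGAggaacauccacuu
miR-376b-5p: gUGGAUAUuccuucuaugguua
miR-376c-5p: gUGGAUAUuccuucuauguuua

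From miR-376b-3p to miR-376a-3p the seed changes by A4G, and C13A and U20G are the other differences. The 5p forms of miR-376c and miR-376b share their seed and differ by U19G alone. Their hairpins share a stretch of 31 bases that covers 18 bases of each 5p form, so a read of those bases only cannot be assigned to one of them. The third set gives 1 form each for the other leading members and for Mir539, which differed between the libraries:
miR-487b-5p: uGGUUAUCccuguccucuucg
miR-541-5p: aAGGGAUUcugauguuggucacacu
miR-382-5p: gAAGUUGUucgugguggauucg
miR-409-3p: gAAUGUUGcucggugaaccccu
miR-369-3p: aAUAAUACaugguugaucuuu
miR-134-5p: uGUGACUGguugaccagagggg
miR-539-5p: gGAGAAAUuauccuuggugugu

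Among the listed forms, most seeds occurred in a single hairpin. The 71 forms carried 65 distinct seeds, and 6 seeds occurred in more than 1 member, covering 12 forms from 11 genes. Many seeds were nevertheless near neighbours: 44 pairs of forms from different members had seeds 1 base apart, and 34 of the 71 forms were in such a pair. Of the 65 seeds, 11 also occurred in a RefSeq form of a gene that is not a member. These include the seed of miR-299a-3p, also found in miR-299b-3p from the opposite strand at the same position. Short stretches recurred among the members. The letters GGUUGACC occurred in 5 member forms from 5 genes and in 0 of 1667 forms from other miRNA genes. GGUCCAC occurred in 5 member forms and GGUUGCC in 4, and likewise each in 0 of 1667 others. The shorter CAUGG and ACGG each occurred in 7 member forms and in 46 of 1667 others. All were searched on the printed strand of the mature form only. Each of these stretches occurs in member forms, so the counts only describe the forms, and no test was made.

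Sense-strand miRNA counts summed to 3961630 for replicate 1 and 1686822 for replicate 2, 33.7% and 25.7% of all reads. Levels are given in CPM, the count scaled to a library total of 1000000 such counts. Each read stands for 1 short RNA, so counts were not divided by the length of the hairpin gene. The tables hold miRNA genes only, so mRNA markers of adrenal cortex and medulla could not be checked. Of the miRNA markers, 4 of 4 neuroendocrine genes were counted and summed to 3.63% and 4.67%, with 2 higher and 2 lower in replicate 2 and 1 of them, a lower one, past the test described below. Markers of other cell types differed between the libraries. The hepatocyte marker Mir122 was at 0.130% in replicate 1 and 2.06% in replicate 2 and was called higher. The 3 erythroid markers summed to 0.725% and 0.0595%, with 2 called lower in replicate 2 and 1 higher but not called. The 10 striated muscle markers, with Mir133a-2 at 0, summed to 0.115% and 0.270%. Of the 4 tested, 3 were called higher and 1 was lower but not called. The 5 kidney markers summed to 0.0241% and 0.0379%, with 2 called higher and 2 called lower. The 3 pancreatic acinus markers summed to 2 and 35 counts, with 1 tested and called higher. Leukocyte markers, with Mir142b at 0, summed to 0.0858% and 0.134%, and epithelial markers to 0.132% and 0.0936%. Of those tested, 2 leukocyte markers were higher in replicate 2 and 2 lower, with 1 called higher. Of the epithelial markers, 2 were higher and 5 lower, with 2 called lower. Endothelial markers summed to 6.52% and 8.34% and those of stroma and smooth muscle to 4.46% and 4.18%. The 2 endothelial markers were higher in replicate 2, and of the 5 tested stromal ones 2 were higher and 3 lower. In both of these lists 0 were called. The 14 neuronal markers summed to 0.134% and 0.0949%, with Mir124a-2 and Mir124a-3 at 0 in both libraries and Mir124a-1 at 0 counts and 1 count. Of the 8 neuronal markers tested, 2 were higher in replicate 2 and 6 lower, with 1 called in each direction. The part of these cell types in the members' differences was not tested beyond the totals given below.

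The cluster held a similar share of miRNA counts in both libraries. Its members summed to 332135 and 144807 counts for replicates 1 and 2, equal to 8.38% (95% exact Clopper-Pearson interval 8.36 to 8.41%) and 8.58% (8.54 to 8.63%) of the sense-strand counts, a mean of 8.48% ± 0.142 (SD, n = 2). Intervals cover counting error only, and no variation between animals. They treat reads as independent molecules, which sequencing reads are not, so they may be too narrow even for counting error. Of the 39 members, 34 were detected, meaning at least 10 counts in both libraries, so the cluster gave 34 of the 340 miRNA genes detected in all. In mean level, 13 members were at 1000 CPM or more, 19 were between 100 and 1000 CPM, 2 were between 10 and 100 CPM and 5 were lower. In CPM the members summed to 83838 for replicate 1 and 85846 for replicate 2, a log2 ratio of replicate 2 over replicate 1 of 0.03. With totals that leave out the hepatocyte, erythroid and striated muscle markers, that log2 ratio was 0.05 and the mean share 8.63%.

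The direction of so small a ratio depended on single members and on the scaling. Without Mir487b it was -0.07. TMM scaling, the trimmed-mean method of edgeR, moved the log2 ratios of tested genes by -0.11 when taken over all genes and gave -0.07 for the cluster, whereas TMM over genes with at least 10 counts in both libraries gave 0.06. No direction is read from it.

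**Figure D1:**
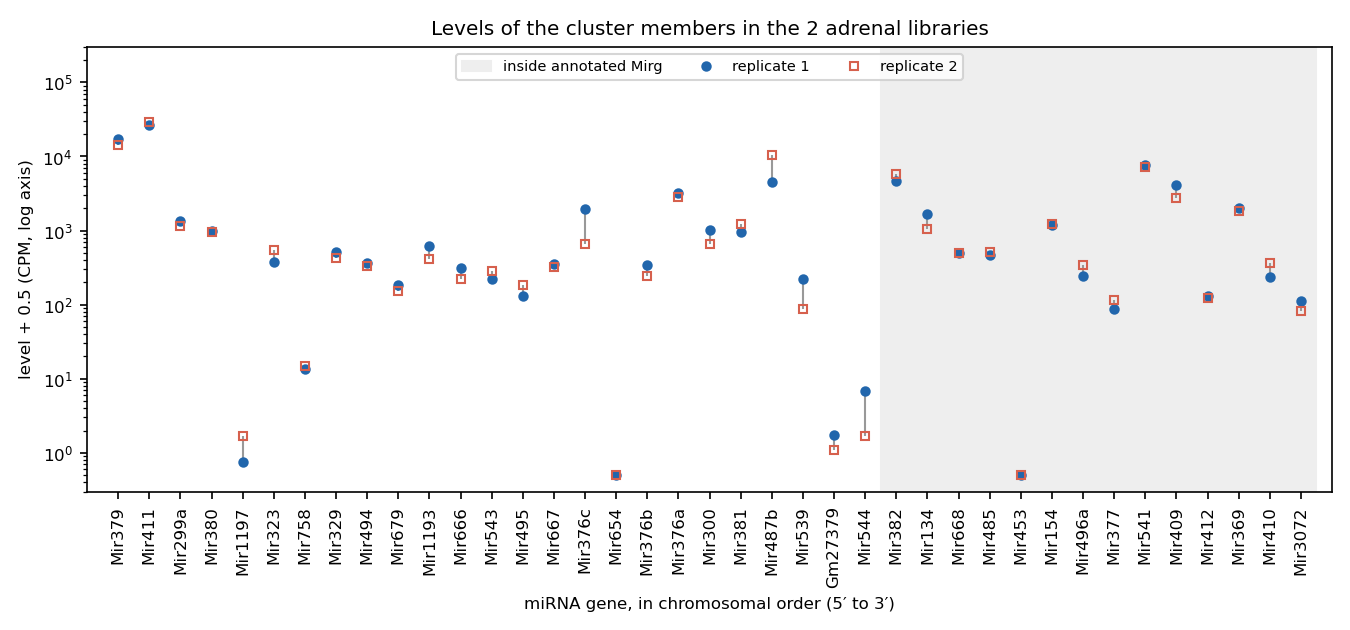
Level of each of the 39 members in CPM + 0.5 on a log axis, in chromosomal order; filled circles are replicate 1, open squares replicate 2, grey lines join the pair, and the shaded part lies inside the annotated Mirg gene. Many neighbouring hairpins stand far apart in level, Mir379 and Mir411 lead, and Mir654 and Mir453 are at 0 counts in both libraries.

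A few hairpins made up most of this output. Mir411 lies at chr12:109710175-109710256 and was the eleventh most abundant miRNA gene of the tables. Its counts were 103839 and 48575 for replicates 1 and 2, or 26211 and 28797 CPM (27504 ± 1828, SD, n = 2). Mir379, the first hairpin of the cluster at chr12:109709060-109709125, had 67502 and 23728 counts, or 17039 and 14067 CPM (15553 ± 2102). They lie 1049 bases apart, are upstream of the annotated Mirg gene and carry the related seeds printed above. Together they held 51.6% of the cluster's counts in replicate 1 and 49.9% in replicate 2. Mir411 shares 21 bases with the hairpin of Mir758, of which 12 lie in miR-411-3p, so reads of that part alone are uncertain; Mir758 itself had only 52 and 24 counts.

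Behind this pair came Mir487b, Mir541 and Mir382. Mir487b, at chr12:109727333-109727414, had 4495 CPM in replicate 1 and 10487 CPM in replicate 2, and its level was far less even between the libraries than that of the members around it in rank. Mir541, at chr12:109742409-109742498 in an intron of Mirg, had 7683 and 7146 CPM (7415 ± 380, SD, n = 2). Mir382, at chr12:109733771-109733846 where it overlaps an exon of Mirg, had 4641 and 5743 CPM (5192 ± 779). This order holds for the mean level only: Mir487b was below both Mir541 and Mir382 in replicate 1 and above both in replicate 2. The 5 leading members held 71.6% and 77.2% of the cluster's counts, a mean of 74.4% ± 3.90 (SD, n = 2).

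The next 5 members ranged from 3398 to 1300 CPM in mean level. Mir409, at chr12:109743158-109743236, had 4059 and 2737 CPM (3398 ± 935, SD, n = 2). Mir376a, at chr12:109723781-109723848, had 3167 and 2801 CPM (2984 ± 259). Mir369, at chr12:109743418-109743496, had 2000 and 1850 CPM (1925 ± 106). The ranges of Mir409 and Mir376a overlapped, so their order is not resolved, while Mir369 lay below both in each library. Mir134, which limits dendritic spine size in neurons through the kinase Limk1, lies at chr12:109734139-109734209 and had 1666 and 1064 CPM (1365 ± 426). Mir376c, at chr12:109722718-109722803, had 1949 and 652 CPM (1300 ± 918). Mir134 and Mir376c changed places between the libraries. The 10 leading members together held 87.4% ± 0.564 of the cluster's counts (SD, n = 2).

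By the listed forms, 2 members outside these 10 share a seed with one of them, and both were lower than that member in each library. Mir1193, which has the 5p seed of Mir379, had 624 and 417 CPM (521 ± 146, SD, n = 2). Mir376b, which has the 5p seed of Mir376c, had 343 and 242 CPM (293 ± 70.8) and thus lay below Mir376c and Mir376a in both libraries. Counts of Mir376b and Mir376c are uncertain because of their shared stretch.

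The remaining detected members ran from Mir299a at 1258 ± 143 CPM (SD, n = 2) down to Mir758 at 13.7 ± 0.779 CPM. Mir299a shares 49 bases with Mir299b on the opposite strand, so its counts are uncertain too. Mir154, which gives its name to a family of related hairpins in the cluster, had 1181 and 1231 CPM. Mir381 had 963 and 1207 CPM, and Mir300, whose 3p seed differs from that of Mir381 by 1 base, had 1001 and 666 CPM. Mir485, known for effects at synapses, had 462 and 515 CPM, and Mir329 had 506 and 426 CPM. Mir668 was the most even of the detected members with at least 100 CPM, with 504 and 499 CPM. At the distal end, Mir410 had 233 and 363 CPM and Mir3072, 4082 bases beyond it, had 112 and 80.6 CPM.

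Of the members that were not detected, Mir544 had 25 counts in replicate 1 and 2 in replicate 2, Gm27379 had 5 and 1, and Mir1197 had 1 and 2. Mir654 and Mir453 had 0 counts in both libraries, which allows up to 3 counts, or 0.757 CPM in replicate 1 and 1.78 CPM in replicate 2. Mir654 lies between Mir376c and Mir376b, and Mir453 lies between Mir485 and Mir154, so each is flanked by members that were at 242 CPM or more in both libraries.

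Level showed little trend with distance along the cluster, though neighbours were somewhat closer in level than pairs in general. The members span 38901 bases, with a median gap of 556 bases between neighbours, a smallest gap of 20 bases (before Mir1193) and a largest of 4368 bases (before Mir382). Among the 34 detected members, chromosomal neighbours differed in mean level by a median of 1.64 on the log2 scale, against 2.08 for all 561 pairs. Of 33 neighbour pairs, 25 were more than 2-fold apart and 9 more than 10-fold. The widest step was from Mir377 to Mir541, which was 73.3-fold higher, with 1831 bases between them. Mir299a was 21.9-fold lower than Mir411, with 381 bases between them. Mir412 was 26.9-fold lower than Mir409, with 52 bases between them. Spearman's rho with mean level over the 34 detected members was -0.09 for distance from Mir379, -0.17 for GC content and 0.14 for folding energy per base; these are descriptions over genes that share the same 2 libraries and are not independent.

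Most of the output came from hairpins that lie before the annotated start of Mirg. The Mirg gene is annotated at chr12:109729764-109749460, beginning 362 bases after the end of Mir544. Of the 39 members, 25 lie upstream of it, with no other annotated non-miRNA gene of the plus strand around them, 9 overlap an exon of a Mirg transcript and 5 lie in introns of Mirg. The upstream members held 72.6% of the cluster's counts in replicate 1 and 74.6% in replicate 2, and the Mirg members held 27.4% and 25.4%. The median member level was 350 CPM upstream and 495 CPM inside Mirg, and Mir411, Mir379 and Mir487b alone gave 32.4, 18.4 and 8.79% of the cluster's counts on average. All 4 members that were called different between the libraries lie upstream, where 22 members were tested. Of the 13 tested inside Mirg, 0 were called. Over all 404 tested miRNA genes, 18.3% were called. Whether the 2 parts differ in this was not tested.

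Most tested members differed by less than 2-fold between the 2 libraries, and 4 differed by more. For each of the 404 miRNA genes that reached 10 counts in at least 1 library, the counts of both libraries were set against the ratio of their totals by an exact binomial test, two-sided. Calls needed an adjusted p (Benjamini-Hochberg, over all 404) under 0.05 and a log2 ratio of CPM + 0.5 above 1 or below -1. Of 35 members tested, 1 was called higher and 3 were called lower in replicate 2. Mir544, among the lower ones, reached 10 counts in replicate 1 only, so the filter favoured that direction. Over all tested genes 18.3% were called (9.65% higher and 8.66% lower), so the members' 4 of 35 did not exceed the background. The median log2 ratio was -0.11 over the members and -0.04 over the 369 tested genes outside the cluster. In size, regardless of sign, the median log2 ratio was 0.32 over the members and 0.50 over the other tested genes. Of the 35 members, 25 were within 0.5 of 0. The sets were not matched for level, so these sizes are not read as a trait of the cluster. The median level was 461 CPM over all 39 members and 88.7 CPM over the 369 other tested genes. The test compares these libraries and not conditions, and with 1 library on each side a difference has no replicate check.

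**Figure D2:**
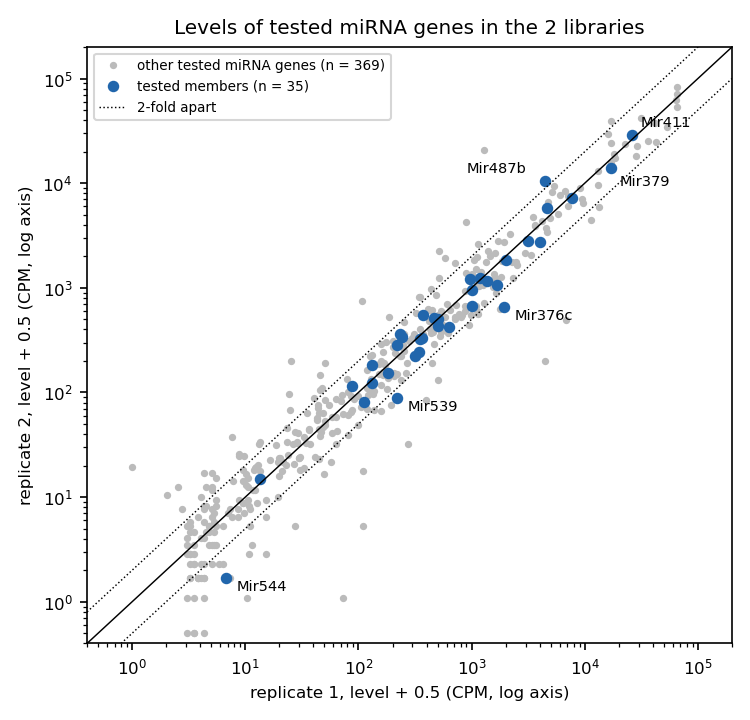
Level of each tested miRNA gene in replicate 1 (horizontal) and replicate 2 (vertical), as CPM + 0.5 on log axes; blue points are the 35 tested members, grey points the 369 other tested genes, the solid line marks equality and dotted lines mark a 2-fold difference. The 4 members that were called different lie outside the dotted lines, and the other 31 lie between them.

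Mir487b was the member called higher in replicate 2. It had 17807 and 17690 counts although replicate 2 was the shallower library, a CPM ratio of 2.33 (95% exact interval 2.28 to 2.38). Its share of the cluster's counts was 5.36% in replicate 1 and 12.2% in replicate 2. Its hairpin shares 20 bases with that of Mir376b. The stretch covers 9 bases of miR-376b-3p and none of miR-487b-5p, and the other arm of Mir487b was not analysed here, so reads from that stretch are uncertain. Scaled to all reads in place of miRNA counts, its log2 ratio fell from 1.22 to 0.83 and it was not called.

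Mir376c was lower in replicate 2 by 2.99-fold (2.81 to 3.19), with 7723 and 1099 counts. Its log2 ratio was -1.58, against -0.50 for Mir376b and -0.18 for Mir376a, the other members of its group, neither of which was called. The 3 hairpins begin 13.7, 14.4 and 14.7 kb after the start of Mir379, in the order Mir376c, Mir376b and Mir376a. Mir539 was lower by 2.51-fold (2.11 to 3.01), with 872 and 148 counts (adjusted p = 1.28e-29, exact test). Between it and Mir487b, the member called in the opposite direction, lie 714 bases. Mir544, with 25 and 2 counts, was lower by 5.32-fold (1.33 to 46.4; adjusted p = 0.0171, exact test). Its log2 ratio of -2.01 depended on the added CPM: with CPM + 5 it was -0.87 and Mir544 was not called.

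**Figure D3:**
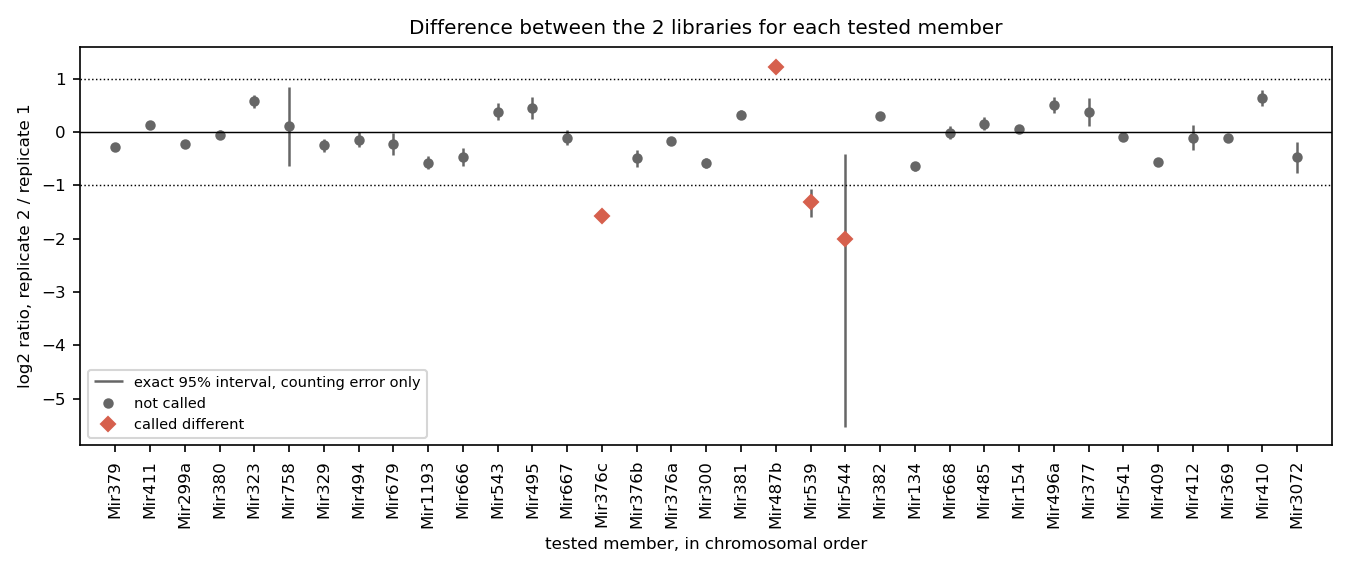
Log2 ratio of replicate 2 over replicate 1 (on CPM + 0.5) for the 35 tested members in chromosomal order; vertical lines are exact 95% intervals of the ratio without the added 0.5, for counting error only, and dotted lines mark 1 and -1. The 4 called members (diamonds) lie between Mir376c and Mir544, and the other 31 lie between -0.65 and 0.64.

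Beyond these 4, differences of the tested members were below 2-fold but often larger than counting error. Mir134 was at -0.65 and Mir410 at 0.64, the widest ratios among members that were not called. The leading pair moved in opposite directions, Mir411 by 0.14 and Mir379 by -0.28. At a threshold of any size, 28 of the 35 members had an adjusted p under 0.05 by the exact test (11 higher and 17 lower), as did 62.1% of all tested genes (29.7% higher and 32.4% lower), so at these depths passing that test alone says little.

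Other miRNA genes of the Dlk1-Dio3 region and other miRNA clusters were measured the same way. The 22 listed miRNA genes of the proximal part, which lie near Meg3, Rtl1 and Rian, summed to 3.60% and 3.40% of counts, with 17 detected and 1 of 17 tested members called (higher). Their median log2 ratio was 0.13. The SD of the log2 ratio over tested genes was 0.62 for the Mir379 to Mir410 members and 0.61 for the proximal genes. It was 0.54 over 7 genes of the Mir322 and Mir503 polycistron, 0.88 over 6 genes of the Mir17 cluster, 0.80 over 9 genes of the Sfmbt2 cluster, and 1.08 over all tested genes outside the members. No test was made between these lists, and they were not matched for level.

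Part of the cluster was visible only in the strand-specific counts. On the minus strand, 5 miRNA genes (Mir299b, Gm25750, Gm25252, Gm44322 and Gm24321) are annotated opposite Mir299a, Mir380, Mir376a, Mir539 and Mir409. In the column that counts reads of either strand, these 5 members had 6 counts in all in replicate 1 and 0 in replicate 2, against 38845 and 13063 sense-strand counts. They made up 11.7% and 9.02% of the cluster. On the strand opposite to them, Mir380, Mir376a, Mir539 and Mir409 had 0 counts in both libraries and Mir299a had 5 and 0. Only Mir541, with no miRNA gene opposite, had a further count on that strand, 1 in replicate 2. The strand of reads from the 49 bases that Mir299a shares with Mir299b is uncertain.

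**Figure D4:**
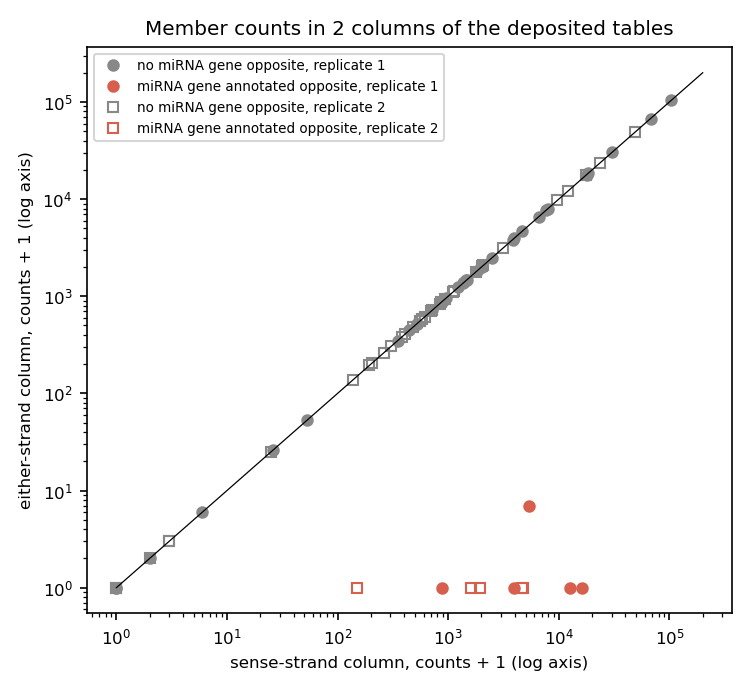
Counts + 1 of each member in the sense-strand column (horizontal) and in the either-strand column (vertical), both on log axes; filled circles are replicate 1, open squares replicate 2, and the line marks equality. Members with no miRNA gene on the opposite strand lie on the line, and the 5 with one (red) lie at or near 0 in the either-strand column.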

How the data were processed

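Small RNA libraries (size range under 30 nucleotides, per the labels) from 2 adrenal samples were analysed. The authors deposited 1 table per library of read counts per miRNA gene, with 3 count columns and 4 summary rows that name no gene, on mm10 with annotation M21, per the accompanying file lists. The aligner, trimming and filters are not given in the sources used here. Reads at more than 1 locus stood in a summary row (27.0% and 25.7% of reads); all summary rows made up 66.3% and 74.3% of reads and were left out of totals. The sense-strand column was used. An edgeR quasi-likelihood test was not possible with 1 group, so an exact binomial test was used, after a check on simulated counts. The simulated counts held counting error and set changes only, scaled on the genes left unchanged. They had no variation between animals, so the check says nothing of how the test behaves under such variation. Alternatives used edgeR 4.0.16 (TMM) and DESeq2 1.42.0 size factors in R 4.3.3, other totals, count minimums of 1 and 20, CPM + 5, and the either-strand column. Python 3.11.15, scipy 1.17.1 and RNAfold 2.7.2 (folding of GENCODE hairpins) were used. A member "shares" sequence if 20 bases match another miRNA gene. Named genes were the 10 members of highest mean CPM, those called different, those sharing a seed with one of the 10, and those with opposite-strand counts above 3; further members were named to show the range and were chosen after their values were seen. Members and lists were chosen with earlier results of these data known.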

Additional observations from a re-analysis of the deposited data

Results flagged for a closer look

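Reads on the strand opposite to the members were not used in the report's levels. Mir299a had 5 such counts in replicate 1, above the 3 that a count of 0 allows, and 0 in replicate 2. Mir299b is annotated on that strand at this position and had the same 5 counts and 0 counts as its own sense-strand counts. The 2 hairpins share 49 bases, which cover 21 bases of miR-299a-5p and 18 of miR-299a-3p. A read of those bases alone can match either strand, so the strand of these 5 counts is uncertain.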

How the results depend on the processing

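No paired analysis was possible because there is 1 group. Of 61 alternatives for the main results, 39 stayed within the spread between the libraries, the counting interval or 1.5 times the count, and 22 did not. The cluster's log2 ratio, near 0, was -0.0730 under TMM over all genes, -0.0731 under DESeq2 size factors, 0.0558 under TMM over genes with at least 10 counts in both libraries, -0.35 with all reads as the total, 0.0894 in the either-strand column, 0.0625 with a total that omits Mir126a and 0.0550 with one that omits the hepatocyte, erythroid and striated muscle markers. It was -0.0743 without Mir487b, 0.0827 without Mir379 and Mir411 and -0.15 without the 6 members that share 20 bases. In the same alternatives the mean share was 2.52% of all reads, 8.69% in the either-strand column, 9.17% without Mir126a, 8.63% without the other-cell markers, 7.74% without Mir487b, 4.18% without Mir379 and Mir411, and 4.70% without members that share 20 bases. With either library left out, the share ranged from 8.38 to 8.58%, detected members from 34 to 35 and the share of the 5 leading members from 71.6 to 77.2%. That last share was 83.0% in the either-strand column. Members called different numbered 28 at any size, 8 at a log2 ratio over 0.58 (132 of all 404 tested genes) and 2 (Mir539 and Mir544) without members that share 20 bases. Mir376c, Mir487b, Mir539 and Mir544 were the members called under TMM and DESeq2 scaling too. With all reads as the total, the 4 called were Mir134, Mir376c, Mir539 and Mir544, each lower in replicate 2. Mir134 then had a log2 ratio of -1.03. In the either-strand column 3 were called, Mir376c, Mir487b and Mir544. The members' median log2 ratio was -0.49 with all reads as the total, where that of all tested genes was -0.41. The removal of Mir487b, the removal of Mir379 with Mir411 and the TMM over genes with at least 10 counts were chosen after seeing the data. Of 171 alternatives for 12 single members none reversed a call, 2 ended one (Mir487b with all reads as the total, Mir544 with CPM + 5) and 10 added one, 9 of them through a lower fold threshold. The 171 leave out cases where a member was removed or no longer tested, such as Mir539 in the either-strand column. Depth limits Mir544, Gm27379, Mir1197, Mir654 and Mir453, since 10 counts are 2.52 CPM in replicate 1 and 5.93 CPM in replicate 2.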
